A study of Saccharomyces cerevisiae with 4 samples.

Results

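The genes described here are those of the CUP1 repeat of budding yeast and the other metallothionein and copper-response genes that belong with it: CUP1-1, CUP1-2, the reading frame YHR054C, RSC30, CRS5 and CUP2. These 6 of 7126 features in the count tables were chosen by name with their measured reads in the mutant and the wild type already known, so that difference is given for them as a description, with no test. Polyadenylated RNA was sequenced from an xpo1-1 mex67-5 strain (2 libraries) and from a wild-type strain (2 libraries). Both proteins carry cargo out of the nucleus, Xpo1 mainly proteins and some RNAs, and Mex67 chiefly messenger RNA. All cells grew overnight at 25 °C and spent 1 h at 37 °C before harvest, so both groups share the heat treatment. The labels name no parent strain, no mating type, no marker and no number or type of CUP1 repeats for either strain, and do not say whether replicate libraries are separate cultures.

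Metallothioneins are small cysteine-rich proteins that bind copper and keep free copper low. In yeast, copper binds the activator Cup2 (also called Ace1), which then switches on CUP1 and CRS5. CUP1 is also a known target of the heat shock factor Hsf1, and the CUP1 unit is tandemly repeated to a different extent in different strains. RSC30, at the edge of the repeat, encodes a DNA-binding subunit of the RSC chromatin remodelling complex.

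The repeat sets which reads can be placed at all. In the R64 reference the region lies on chromosome VIII as 2 copies of a unit of 1998 bases. Bases 212266 to 214253 are identical to bases 214264 to 216251, a run of 1988 bases. CUP1-1 (YHR053C, chromosome VIII, 212535 to 212720, minus strand) and CUP1-2 (YHR055C, 214533 to 214718, minus strand) have all 186 bases in common. YHR054C (213185 to 214249, minus strand) is identical over its 1065 bases to the 3′ part of RSC30 (YHR056C, 215183 to 217834, minus strand). Of 50-base windows, the length of the reads, none inside CUP1-1, CUP1-2 or YHR054C occurs only once in the genome. Inside RSC30, 60.8% of windows do, and inside CRS5 (YOR031W, chromosome XV, 389213 to 389422, plus strand) and CUP2 (YGL166W, chromosome VII, 191129 to 191806, plus strand) every window does.

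Between the start of copy 1 and the end of copy 2, unique windows begin at 108 positions. Of these, 59 (214205 to 214263) lie where copy 1 ends and copy 2 begins, and 49 (216203 to 216251) belong to windows that cross the right edge into the unique part of RSC30. Of the 59 at the junction, 45 touch the first bases of YHR054C. The 3 edges of the repeat are shown on the plus strand because they set what the count of YHR054C is. Capitals mark bases of the identical run and lower case marks bases outside it.
Left edge, chrVIII:212236-212295: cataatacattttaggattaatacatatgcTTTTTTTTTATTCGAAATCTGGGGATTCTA
Junction of the copies, chrVIII:214224-214293: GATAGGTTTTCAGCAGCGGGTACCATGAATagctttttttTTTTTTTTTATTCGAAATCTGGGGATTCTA
Right edge, chrVIII:216222-216281: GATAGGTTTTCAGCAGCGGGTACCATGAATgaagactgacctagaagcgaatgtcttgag
A uniquely placed read of YHR054C has to run over this junction, since the sequence to its left is also in RSC30 and the sequence to its right is also downstream of CUP1-1. The junction holds a run of 16 T on the plus strand, against 9 T at the left edge, and 27 of the 45 windows hold the whole run. The last unique window ends 220 bases short of CUP1-2, on the side where that gene's coding sequence ends. Strand was not marked, so the transcripts that gave these reads cannot be told apart.

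**Figure D1:**
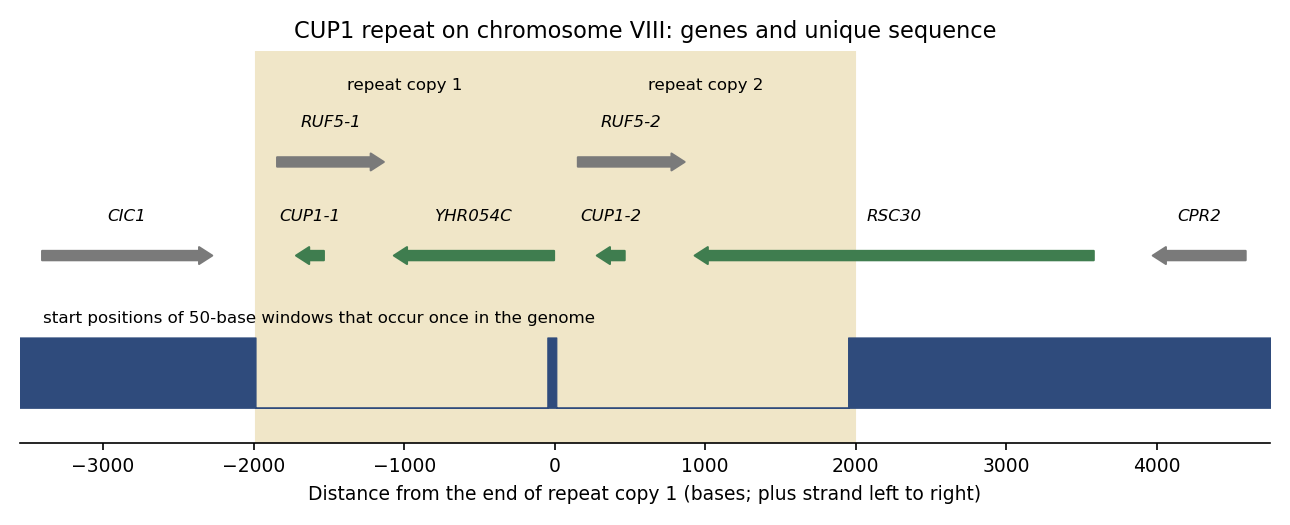
Genes of the CUP1 region drawn to scale by distance in bases from the end of repeat copy 1, with arrows in the direction of transcription and shading over both copies. The dark track marks start positions of 50-base windows that occur once in the genome, and inside the repeat it is filled at 59 positions at the 5′ end of YHR054C and at 49 positions at the right edge, in RSC30.

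Both CUP1 genes were listed at 0 reads in both mutant and both wild-type libraries. This says nothing of their messenger RNA. Of 6079 features matched to the RefSeq annotation, 104 had no unique window, and 76 of these (73.1%) had 0 reads in all 4 libraries, against 72 of the 5975 others (1.21%). The highest count of a feature without a unique window was 17 reads in a library. Each CUP1 copy also lies wholly inside RUF5-1 or RUF5-2, noncoding RNA genes on the opposite strand. Among 52 features whose unique windows all touch another gene, 36 had 0 reads (69.2%), and the highest count in a library was 6308. Among 67 features with no unique window but with windows free of other genes, 39 had 0 reads (58.2%). Their highest count in a library was 17. For CUP1 the effects of repeat and overlap cannot be told apart. A count of 0 allows up to 3 reads, or 0.0482 to 0.0608 CPM (reads per 1000000 reads of the library) depending on the library, which limits countable reads only.

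YHR054C held 48108 and 37872 reads in the mutant libraries, against 79 and 63 in the wild-type libraries. In CPM, counted against the library size after TMM scaling, it averaged 756 ± 11.95 in the mutant and 1.44 ± 0.223 in the wild type (SD, n = 2 each). Both mutant libraries lay far above both wild-type libraries, by a ratio of means of 527 and a log2 difference of 9.04. With each library left out in turn, that difference ran from 8.89 to 9.20. The SE of 0.07, taken from the F value of the fit, is narrow beside that range and may understate the error. It was the feature with the 148th and 155th most reads in the mutant libraries and the 5908th and 5975th in the wild-type libraries, of 7126. Only 10 of 6563 tested genes had a larger log2 difference. With both CUP1 copies at 0, the pooled reads of CUP1-1, YHR054C and CUP1-2 are those of YHR054C alone. More cells with a transcript and more of it per cell cannot be told apart in bulk RNA, and values are shares of a library. The count rests on the junction of the reference's copies, and the labels give no repeat number or type for either strain. A strain difference in that junction or in repeat number therefore cannot be told apart from a difference in transcript level.

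The noncoding RNA genes that enclose the CUP1 copies were listed with few reads. No unique window touches either of them and strand was not marked, so these reads cannot be assigned to RUF5-1, RUF5-2 or a CUP1 copy. RUF5-1 (chromosome VIII, 212409 to 213118, plus strand) had 17 and 10 reads in the mutant libraries and 0 and 0 in the wild-type libraries. RUF5-2 (214407 to 215116, plus strand) had 4 and 5 reads in the mutant libraries and 0 and 0 in the wild-type libraries. Neither reached the filter on low counts.

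RSC30 had 5484 and 4361 reads in the mutant libraries, against 2017 and 2089 in the wild-type libraries. It averaged 86.7 ± 0.750 CPM in the mutant and 41.55 ± 1.21 CPM in the wild type (SD, n = 2 each), a ratio of 2.09 and a log2 difference of 1.06 (SE 0.04). The groups did not overlap. Its 3′ part, which YHR054C shares, cannot be placed uniquely, so these values stand for the other 1632 windows, all of them outside the repeat or across its right edge.

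CRS5, the metallothionein gene outside the repeat, had 1348 and 1163 reads in the mutant libraries, against 473 and 479 in the wild-type libraries. Its level was 22.2 ± 1.09 CPM in the mutant and 9.63 ± 0.127 CPM in the wild type (SD, n = 2 each), a ratio of 2.31 and a log2 difference of 1.20 (SE 0.07). CUP2, the gene of the copper-sensing activator, had 1619 and 1291 reads in the mutant libraries, against 913 and 924 in the wild-type libraries. It averaged 25.6 ± 0.172 CPM in the mutant and 18.6 ± 0.237 CPM in the wild type (SD, n = 2 each), a ratio of 1.38 and a log2 difference of 0.46 (SE 0.06). For both genes the groups lay apart, with the smaller gap in CUP2.

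In all 4 members past the filter on low counts, both mutant libraries lay above both wild-type libraries. Among all 6563 genes tested, the groups did not overlap in 96.4%, with the mutant higher in 48.5% and lower in 48%. A call of higher by at least 1 on the log2 scale was made for 27.8% of genes, and of lower by at least 1 for 25.5%. The median log2 difference over all genes was 0.01. A larger log2 difference than that of CRS5 was found in 24.4% of genes, than that of RSC30 in 26.5% and than that of CUP2 in 38.6%.

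**Figure D2:**
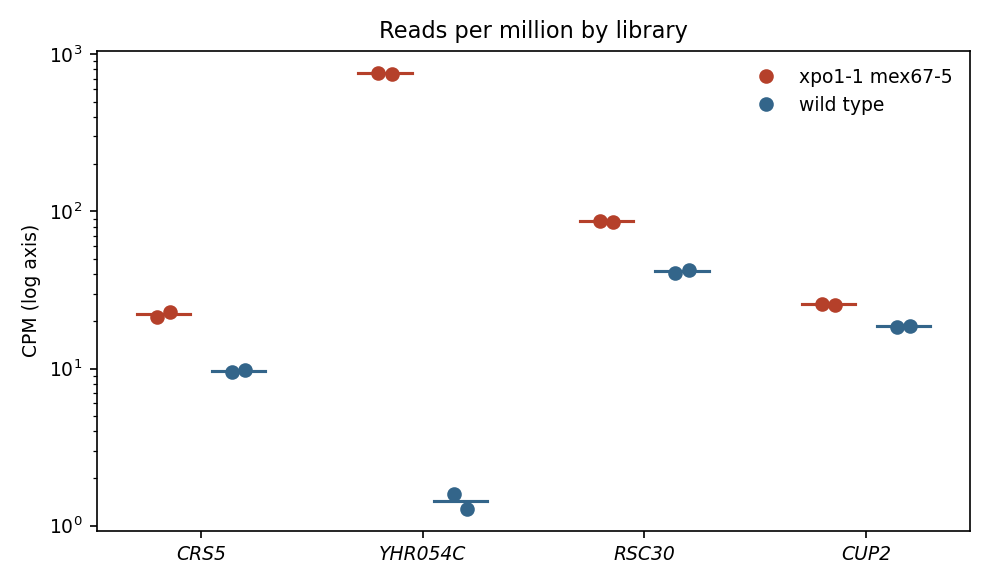
CPM on a log axis in each library for the 4 members with reads, with a bar at the mean of each group (n = 2). Mutant libraries lie above wild-type libraries for each of the 4, and the gap is widest for YHR054C (756 against 1.44 CPM).

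Levels were compared between genes per 100 countable windows, meaning 50-base windows that touch the gene, occur once in the genome and touch no other RefSeq gene. On that scale YHR054C stood at 1681 ± 26.6 CPM per 100 windows in the mutant and 3.19 ± 0.495 in the wild type (SD, n = 2 each). In the mutant this was the 2nd highest of 5907 genes with at least 20 such windows, between SPO24 at 2293 and HSP26, a small heat shock protein gene, at 1471. In the wild type YHR054C ranked 3974th, below the median of 5.25. It rests on 45 windows, so it is a level at the repeat junction and not over the reading frame. Reads from any further copies of this junction would be counted here too. The labels give no repeat number, so its rank is not one per copy. Countable windows took no account of the 1047 of 7126 features without a RefSeq match. Whether overlap with such features changes the level or order of the members was not tested.

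The other members were ordinary in level. CRS5 stood at 8.57 ± 0.420 CPM per 100 windows in the mutant and 3.72 ± 0.0491 in the wild type. RSC30 had 5.31 ± 0.0460 in the mutant and 2.55 ± 0.0741 in the wild type, and CUP2 had 3.52 ± 0.0237 in the mutant and 2.56 ± 0.0326 in the wild type (SD, n = 2 each). The mutant order was YHR054C, CRS5, RSC30 and CUP2, each apart from the next beyond the spread of its libraries, around an all-gene median of 4.99. In the wild type CRS5 came first and YHR054C next, with a gap close to the SD of YHR054C, and CUP2 and RSC30 overlapped.

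**Figure D3:**
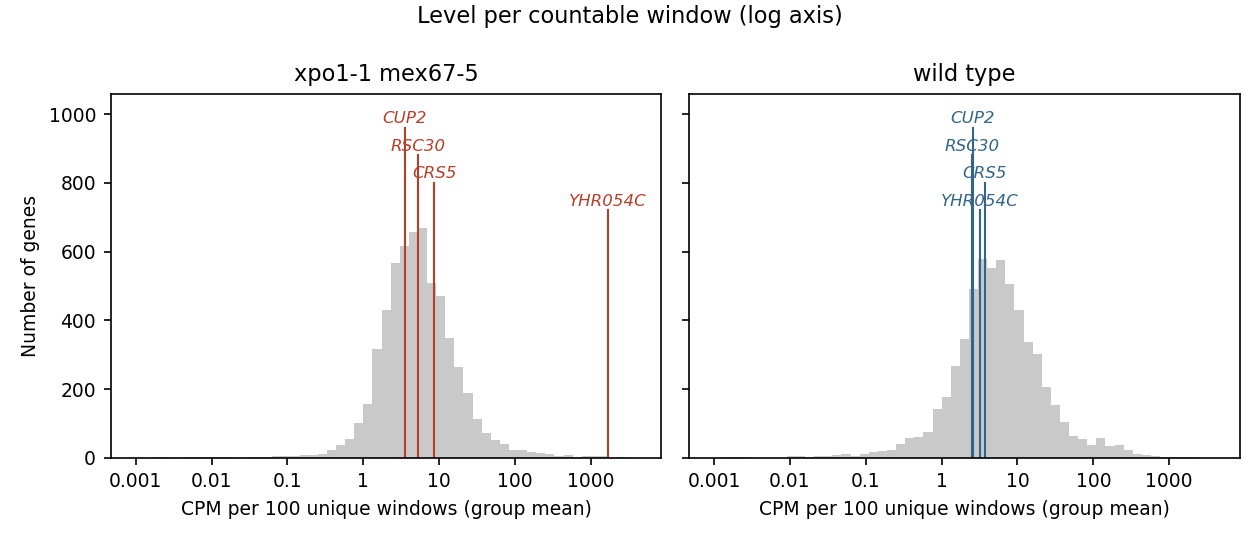
Histograms of 5907 genes by CPM per 100 countable windows (group mean, log axis), in the mutant on the left and the wild type on the right, with members marked by lines. YHR054C stands at the far right in the mutant (1681) and within the bulk of genes in the wild type (3.19).

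The promoters of the metallothionein genes carry letters of the motifs of their known activators. The windows run from 250 bases before to 50 bases after the start of the gene in RefSeq build R64, on the strand of the gene. They are shown because both are known Cup2 targets, CRS5 countable and CUP1 not. Capitals mark matches to TNNNGCTG, the core bound by Cup2, and to TTCNNGAA, a heat shock element, on either strand.
CUP1-2, chrVIII:214669-214968, minus strand: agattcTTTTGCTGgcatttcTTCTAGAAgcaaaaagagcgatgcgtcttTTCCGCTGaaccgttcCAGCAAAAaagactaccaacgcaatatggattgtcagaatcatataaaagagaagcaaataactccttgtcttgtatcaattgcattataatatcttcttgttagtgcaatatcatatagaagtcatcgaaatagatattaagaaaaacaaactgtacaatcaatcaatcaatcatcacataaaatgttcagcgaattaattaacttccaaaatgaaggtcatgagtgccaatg
CRS5, chrXV:388963-389262, plus strand: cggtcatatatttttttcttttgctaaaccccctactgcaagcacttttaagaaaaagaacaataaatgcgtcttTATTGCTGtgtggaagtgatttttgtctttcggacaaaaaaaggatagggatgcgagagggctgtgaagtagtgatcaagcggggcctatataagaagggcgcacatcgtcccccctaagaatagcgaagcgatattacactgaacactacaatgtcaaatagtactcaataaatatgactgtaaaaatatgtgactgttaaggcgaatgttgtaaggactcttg
The window of CUP1-1 is the same as that of CUP1-2 in all 300 bases. Each holds 3 Cup2 cores and 1 heat shock element, with no overlap between the motifs. CRS5 holds 1 Cup2 core, no heat shock element and 2 matches to AGGGG, the stress response element. CUP2 holds 1 Cup2 core before its start and 1 AGGGG that lies 45 bases after it, inside the gene. RSC30 and YHR054C hold none of the 3 motifs. Of 6001 promoters of the same length, 36.1% hold a Cup2 core and 1.70% hold 3 or more, 12.9% hold a heat shock element and 21.6% hold AGGGG. These are matches of letters, not measured sites.

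The other genes of copper handling were then compared, as lists of known function. Of all 6563 genes, 93.1% were called at an adjusted p of 0.05, 46.8% higher and 46.3% lower in the mutant. The lists are small, with 18 genes at most, and none was tested as a set. Of the 10 genes on the copper uptake list, 3 rose and 6 fell, with a median log2 change of -0.63. The 6 include REE1 and IRC7 (log2 -0.12, SE 0.05), which are not genes of copper transporters or reductases. The vacuolar copper exporter gene CTR2 rose to 516 ± 17.1 CPM in the mutant, against 78.6 ± 7.42 in the wild type (SD, n = 2 each), the largest rise of the list. FRE7, of the ferric reductase family, rose by 0.76 on the log2 scale (SE 0.13). REE1 (log2 -1.41, SE 0.04) and FET4, a low-affinity iron and copper transporter gene (log2 -1.17, SE 0.11), fell the most. By edgeR's quasi-likelihood test with Benjamini-Hochberg adjustment, p was 2.9e-13 for CTR2, 0.013 for FRE7, 3.7e-16 for REE1 and 0.0013 for FET4. The plasma membrane copper importer gene CTR1 fell to 147 ± 7.62 CPM in the mutant, against 287.5 ± 38.1 in the wild type (SD, n = 2 each). MAC1, the activator used when copper is low, rose by 0.71 on the log2 scale (SE 0.04).

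Of the 16 genes on the copper delivery list, 5 were higher and 10 lower, with a median log2 change of -0.89. The shares over all genes tested were 46.8% higher and 46.3% lower. FET3, the multicopper oxidase of iron uptake, fell to 156 ± 3.34 CPM in the mutant, against 1202 ± 306 in the wild type (SD, n = 2 each), with a wide wild-type spread. ATX1, the copper chaperone of the secretory pathway, fell by 2.16 on the log2 scale (SE 0.08). In the other direction PIC2, a mitochondrial carrier of copper and phosphate, rose to 616 ± 4.70 CPM in the mutant, against 69.62 ± 2.173 in the wild type (SD, n = 2 each). SCO1, which brings copper to cytochrome c oxidase, rose by 0.67 on the log2 scale (SE 0.04). Adjusted p by edgeR (quasi-likelihood, Benjamini-Hochberg) came to 0.0063 for FET3, 5.7e-14 for ATX1, 9.5e-21 for PIC2 and 8.6e-12 for SCO1. SOD1, the copper-zinc superoxide dismutase and a further known Cup2 target, had 26260 and 21710 reads in the mutant libraries, against 47709 and 46075 in the wild-type libraries. It fell by 1.17 on the log2 scale (SE 0.04), whereas CRS5, the other countable Cup2 target, was higher in the mutant. With either mutant library left out, 3 genes of the list were called higher in place of 5.

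On the metal detoxification and storage list, 12 of 18 genes were higher and 5 lower, with a median log2 change of 0.37. Over all genes tested, 46.8% were higher and 46.3% lower. The list also holds genes of manganese and zinc uptake. Among these, SMF1 (log2 1.29) and SMF2 (log2 0.42) were higher, ZRT2 (log2 -0.58) was lower and ZRT1 was not called. CUP9, a repressor gene named for copper resistance, rose to 499 ± 0.0749 CPM in the mutant, against 146 ± 3.16 in the wild type (SD, n = 2 each). CCC1, the vacuolar iron and manganese importer gene, rose by 1.47 on the log2 scale (SE 0.05). SMF3, of vacuolar iron export (log2 -0.94, SE 0.04), and ZRC1, of vacuolar zinc storage (log2 -0.71, SE 0.03), fell the most. In edgeR's quasi-likelihood test the Benjamini-Hochberg adjusted p was at most 1.2e-12 for each of CUP9, CCC1, SMF3 and ZRC1, with 6.4e-14 for CCC1.

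Of 6 genes for transcription factors of the metallothionein genes or their relatives, a small set, 5 rose and 1 fell. Their median log2 change was 1.00. Calls over all genes tested were 46.8% higher and 46.3% lower. HAA1, the paralog of CUP2, rose to 626 ± 6.68 CPM in the mutant, against 195.5 ± 3.125 in the wild type (SD, n = 2 each). HSF1 rose by 1.29 on the log2 scale (SE 0.04). SKN7, of the oxidative stress response, fell by 0.24 on the log2 scale (SE 0.04). CUP2 itself, with a log2 difference of 0.46, lay below HAA1, HSF1, MSN2 and MSN4 and above SKN7 and YAP1 (log2 0.30, SE 0.04), a gene of the oxidative stress response. By edgeR's quasi-likelihood test with Benjamini-Hochberg adjustment, p was 1.3e-17 for HAA1, 1.5e-15 for HSF1 and 6.4e-06 for SKN7.

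RSC30 was set beside the other subunits of the RSC complex, which went in both directions. Of 16 subunit genes 6 rose and 10 fell, against 46.8% higher and 46.3% lower among all genes tested. The median log2 change of the 16 was -0.36. RSC3, the paralog of RSC30, rose to 178.5 ± 0.652 CPM in the mutant, against 83.1 ± 4.65 in the wild type (SD, n = 2 each), a log2 change of 1.10 (SE 0.04). RSC9 rose by 1.56 (SE 0.04) and HTL1 by 3.81 (SE 0.23) on the log2 scale. HTL1, which lies 552 bases from HSP30 on chromosome III, had 300.9 and 398.2 CPM in the mutant libraries, which lay well apart, against 24.7 and 25.2 CPM in the wild-type libraries. RSC8 fell by 1.84 (SE 0.04) and RSC58 by 1.33 (SE 0.05) on the log2 scale. Adjusted p by edgeR (quasi-likelihood, Benjamini-Hochberg) came to 2.6e-14 for RSC3, 3.1e-17 for RSC9, 0.0024 for HTL1, 1.4e-17 for RSC8 and 1.0e-14 for RSC58.

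**Figure D4:**
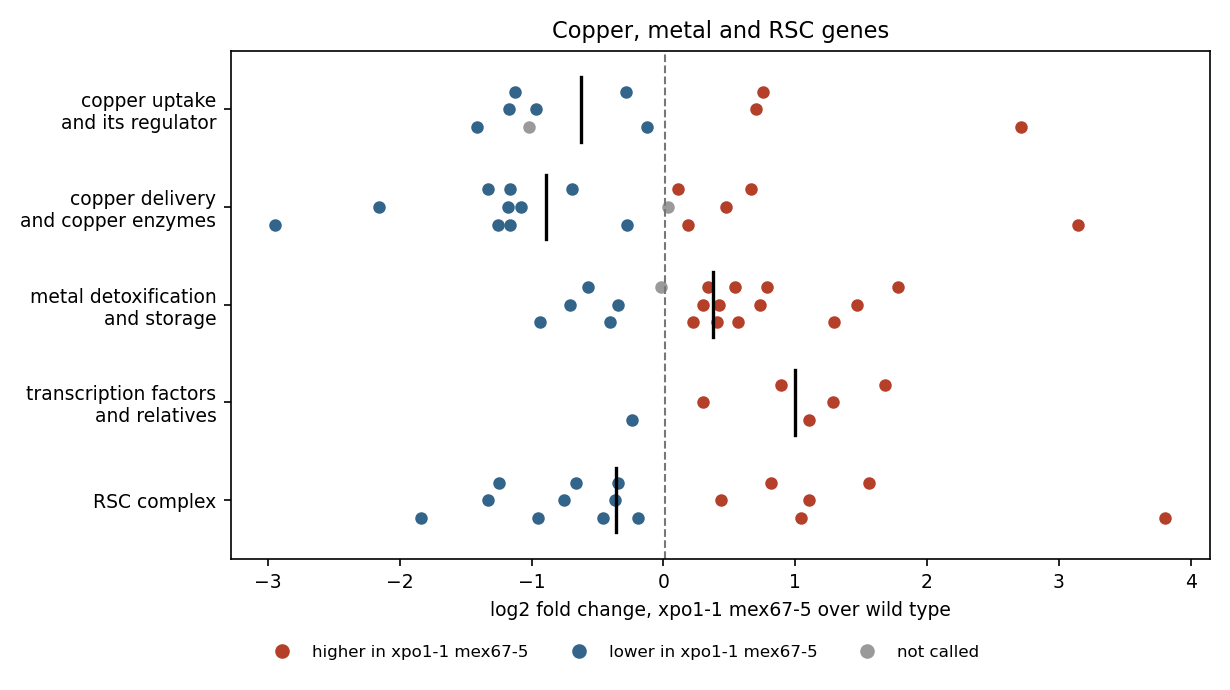
Log2 fold change (mutant over wild type) of each gene of 5 lists, with a black bar at the median of each list and a dashed line at the median of all genes (0.01). Copper uptake, copper delivery and RSC genes have medians below 0 (-0.63, -0.89 and -0.36), and metal detoxification genes and transcription factors have medians above 0 (0.37 and 1.00).

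Of the 10 genes beside the repeat, 5 were called higher and 4 lower, against 46.8% and 46.3% of all genes tested. They differed by side, and whether side matters was not tested. On the side of CUP1-1, the 5 nearest genes all rose. The nearest, CIC1, a ribosome assembly factor gene 556 bases away (chromosome VIII, 210848 to 211978), rose to 437 ± 1.55 CPM in the mutant, against 250 ± 8.41 in the wild type (SD, n = 2 each). On the side of RSC30, 4 of the 5 nearest genes fell and 1, GIC1, was not called. MED6, the weakest of the 4 (log2 -0.14), was not called without mutant replicate 1 or without wild-type replicate 2. The nearest, CPR2, a cyclophilin gene 391 bases away (218226 to 218843), fell to 56.9 ± 2.90 CPM in the mutant, against 98.7 ± 5.33 in the wild type (SD, n = 2 each). In edgeR's quasi-likelihood test the Benjamini-Hochberg adjusted p was 4.6e-13 for CIC1 and 1.3e-11 for CPR2. Within these 10 genes, log2 changes ran between -1.52 and 1.68, so no neighbour with unique sequence came near the 9.04 of the junction.

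Next to CUP2, 5 of 6 genes rose and 1 fell, though HUR1, with a log2 change of 0.50, was not called without mutant replicate 1. PMR1, the calcium and manganese pump gene of the Golgi, rose by 0.54 on the log2 scale (SE 0.03), and YRB30, of Ran binding, by 0.81 (SE 0.04). Around CRS5, 5 of 6 genes rose and 1 fell. Their log2 changes ran between -0.25 and 4.08 with a median of 2.24, against 1.20 for CRS5 itself. Among all genes tested, 46.8% were called higher and 46.3% lower, and sets of 6 genes are small. DFG16, 528 bases before CRS5, rose by 0.52 on the log2 scale (SE 0.05), and HMS1, 348 bases after it, by 1.87 (SE 0.06). HMS1 had 4238 and 3286 reads in the mutant libraries, against 825 and 963 in the wild-type libraries. By edgeR's quasi-likelihood test with Benjamini-Hochberg adjustment, p was 6.5e-11 for PMR1, 8.0e-13 for YRB30, 6.4e-09 for DFG16 and 7.9e-15 for HMS1.

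**Figure D5:**
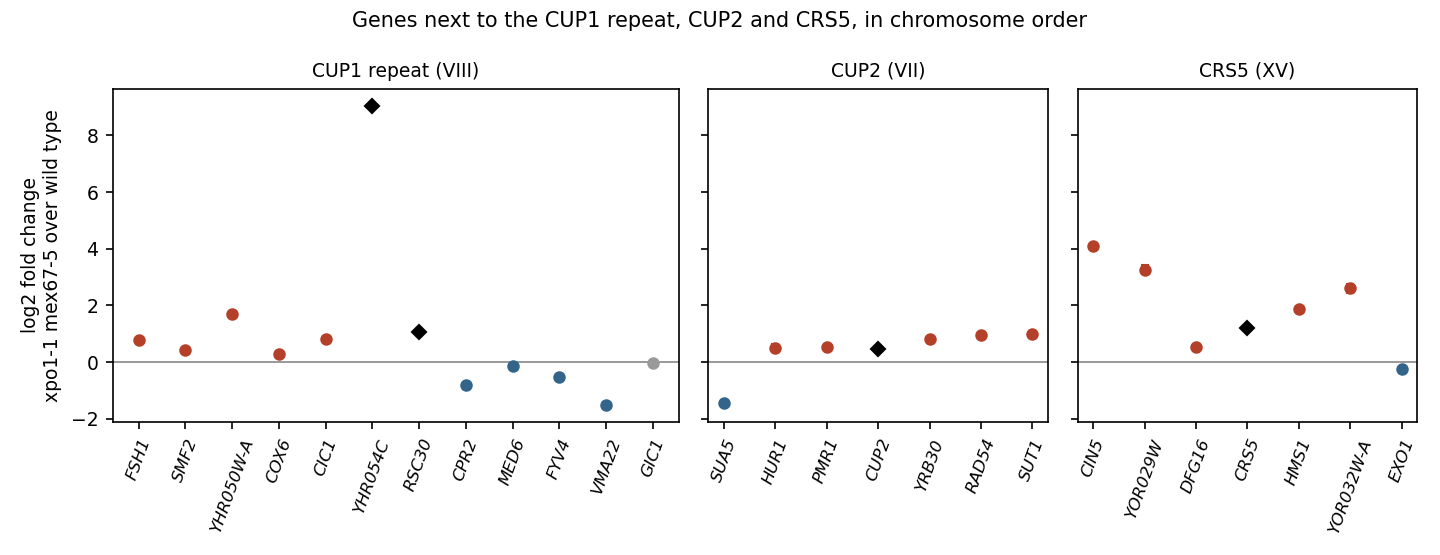
Log2 fold change (mutant over wild type, bars show SE) of the genes next to the CUP1 repeat, CUP2 and CRS5, in chromosome order, with members as black diamonds and neighbours as circles (red higher, blue lower, grey not called). YHR054C stands at 9.04, while its neighbours lie between -1.52 and 1.68. The SE bar of YHR054C is narrow beside its range of 8.89 to 9.20 with each library left out.

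By its profile over the 4 libraries, YHR054C was most like other genes with far more reads in the mutant than in the wild type. Likeness was the Euclidean distance of mean-centred log2(CPM + 1) among 6066 genes with a mean of at least 100 reads. The nearest was HIS3, the histidine synthesis gene used as a selection marker, at a distance of 0.164, with 20902 and 17918 reads in the mutant libraries against 10 and 8 in the wild-type libraries. ATG41, an autophagy gene, followed at 0.356, with 3597 ± 7.61 CPM in the mutant and 13.4 ± 0.244 in the wild type (SD, n = 2 each). BTN2, HSP30 and YER053C-A came next, at distances of 0.521, 0.641 and 1.33. With 4 libraries in 2 groups, this measure reflects little but the size of the group difference in log2(CPM + 1). The added 1 shrinks the difference of genes with low wild-type CPM, so the order is not that of the log2 fold changes. Those were 10.86 for HIS3 and 8.93 for HSP30, against 9.04 for YHR054C.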

How the data were processed

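Libraries were made from poly(A) RNA with a kit that does not mark strand and read as 50-base single reads, per the labels' protocols. Raw counts of reads for genes and for introns are what the authors deposited. Build R64 and the tools STAR 2.5, featureCounts, bcl2fastq 2.17 and DESeq2 1.8.2 appear, without roles, per the submitters' processing notes. For reads with several matches, the treatment was not given in the sources used here. Intron starts matched RefSeq R64 in 310 of 310 records compared, and no member has an intron record. Libraries held 49321384 to 62205252 gene reads. Replicates differed beyond counting noise (chi-square over degrees of freedom 7.15 in the mutant and 10.6 in the wild type). Each library was fitted as 1 sample, though the labels do not say whether they are separate cultures. The p-values set the group difference against the spread between libraries, which may be technical. Floors cover counting error only. Each SE is the absolute log2 difference divided by the square root of the quasi-likelihood F value. It draws on the spread between libraries, but may understate the error of a large difference on few reads, as in YHR054C.

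Genes were tested with edgeR 4.0.16 in R 4.3.3 (filterByExpr, TMM, robust quasi-likelihood F-test, two-sided, Benjamini-Hochberg over all genes, 0.05, group as the only term). The steps were tested on simulated data. Windows, sequences and motifs were read from RefSeq build R64 with Python 3.11.15. The members and lists were chosen with earlier results of these data known. Named were the members, the genes directly next to members and the 5 genes most alike. In each list, the 2 largest rises and 2 largest falls called were named. CTR1, MAC1, IRC7, SOD1, SMF1, SMF2, ZRT1, ZRT2, RSC3, MSN2, MSN4, YAP1, GIC1, MED6, HUR1, SPO24 and HSP26 were chosen after their values were seen. CRM1 was at 189 ± 1.94 CPM in the mutant and 219 ± 2.57 in the wild type, and MEX67 at 1925 ± 30.9 in the mutant and 154 ± 3.25 in the wild type (SD, n = 2 each), which does not test the alleles. Alternatives were other scalings, filters and window lengths, DESeq2 1.42.0, a replicate block and leaving out each library. Figures were drawn with matplotlib 3.10.9.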

Additional observations from a re-analysis of the deposited data

How the results depend on the processing

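YHR054C kept a log2 difference of 9.02 to 9.14 under the other scalings, filters, DESeq2 and the replicate block, and 8.89 to 9.20 without each library in turn. Without each library, CRS5 lay between 1.15 and 1.25, RSC30 between 1.03 and 1.09 and CUP2 between 0.44 and 0.47. Upper quartile scaling, which put the median of all genes at 0.12 in place of 0.01, gave 1.30 for CRS5, 1.16 for RSC30 and 0.56 for CUP2, and a filter of 1 CPM in 2 libraries gave 0.50 for CUP2. Asking also for an absolute log2 difference of 1 or more left 3498 of 6109 called genes, 1823 higher and 1675 lower. Copper delivery genes called higher numbered 3 to 4 without each library. MED6, counted among the 4 lower genes beside RSC30, was not called under upper quartile scaling, the 1 CPM filter, or without wild-type replicate 2 or mutant replicate 1. HUR1, counted among the 5 higher genes next to CUP2, was not called without mutant replicate 1. The replicate number did not pair the libraries (correlation of deviations -0.0369); with it as a block 3075 genes were higher and 3034 lower, and FET3 was not called (log2 -2.92, edgeR adjusted p = 0.07). With windows of 36 bases, none inside CUP1-1, CUP1-2 or YHR054C was unique. GIC1, not called at a log2 difference of -0.03, changed sign under upper quartile scaling (0.07) and the 1 CPM filter (0.01) and stayed uncalled. No called result changed direction under these alternatives. CUP1, RUF5-1 and RUF5-2 have no unique window, and what depth adds to that limit was not tested.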
